A study of Oryza sativa with 6 samples.

Results

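WRKY transcription factors were examined in roots of rice, in the transgenic Huahui 1 (HH1) and the parent line Minghui 63 (MH63), which carries no transgene. Members were the genes whose symbol or synonym in the platform annotation or the RefSeq gene table is WRKY followed by a number. By that rule 6 of the 17905 rice genes with a probe set were members, WRKY24 (LOC4327518), WRKY51, WRKY71 (LOC4328512), WRKY62 (LOC4347070), WRKY76 (LOC4347069) and WRKY9 (LOC4343736). They were read by 7 of 57194 probe sets, with a second probe set only for WRKY71. The rice family is larger, and genes that carry only a locus number in these tables are not covered. Synonyms overlap between members of the family (WRKY24 is also listed as WRKY8, and WRKY71 as wrky38), so the locus numbers identify the genes.

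Both groups have the Minghui 63 background and were sampled as whole roots at an age of 30 days, after growth in nutrient solution in a climate chamber. HH1 is 1 transgenic line, known as background for its insect resistance from a Bacillus thuringiensis toxin gene. Each group had 3 arrays, which the labels call biological replicates, and how many plants each pooled is not given in the labels. The series asked which genes and pathways the roots of the transgenic line express differently, as a search for unintended effects.

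WRKY factors are plant regulators named after a conserved stretch of amino acids in their DNA-binding domain, which binds the W box in promoters, including promoters of other WRKY genes. Many are induced within a short time by wounding, microbes or hormones, downstream of MAP kinase cascades, and they act as activators or as repressors of defence and hormone responses. In rice, WRKY62 binds the intracellular part of the immune receptor XA21 (hence its other name XB10), and WRKY62 and WRKY76 are known as repressors of disease resistance. WRKY24, WRKY51 and WRKY71 are known as repressors of gibberellin signalling in the aleurone of the grain.

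None of the 7 WRKY probe sets passed the comparison of HH1 with MH63 in limma at a threshold of 0.05, adjusted over the 28597 probe sets tested, and 0 of them had an unadjusted p below 0.05. Over all probe sets tested, 0.112% passed (0.0839% higher and 0.028% lower in HH1), and 4.01% had an unadjusted p below 0.05. All 7 WRKY probe sets were bright enough to be tested, and 5 of the 6 genes lay above the background level on every array. That level, a choice made with the data in view, is the signal that 95% of the array's 64 reporter probe sets for foreign genes stay under, and it ran from 37.1 to 42.3 between arrays. The exception was WRKY76, which was below it on HH1 replicate 3 and on MH63 replicates 1 and 3, so that no order is read from its low values. For 4 of the other 5 genes, all but WRKY9, the HH1 arrays spanned the whole range of the MH63 arrays. All 5 had their lowest signal of the 6 arrays on HH1 replicate 3, where 17.6% of the 13561 genes above background on every array had theirs. The margin was slight for WRKY62, at 76.3 against 76.9 on MH63 replicate 3. It was also slight for WRKY9, at 361 against 363 on HH1 replicate 2. WRKY51, WRKY62 and WRKY71, 3 of the 5, were also highest on HH1 replicate 2, a pattern of 8.16% of those genes. With each gene centred on its average of the 6 arrays, the median log2 signal of the 5 genes was -0.05, 0.66 and -0.74 on HH1 replicates 1, 2 and 3, and 0.01, -0.02 and -0.24 on MH63 replicates 1, 2 and 3. In whole roots, a change in the share of cells that use a gene and a change in RNA per cell cannot be told apart.

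**Figure D1:**
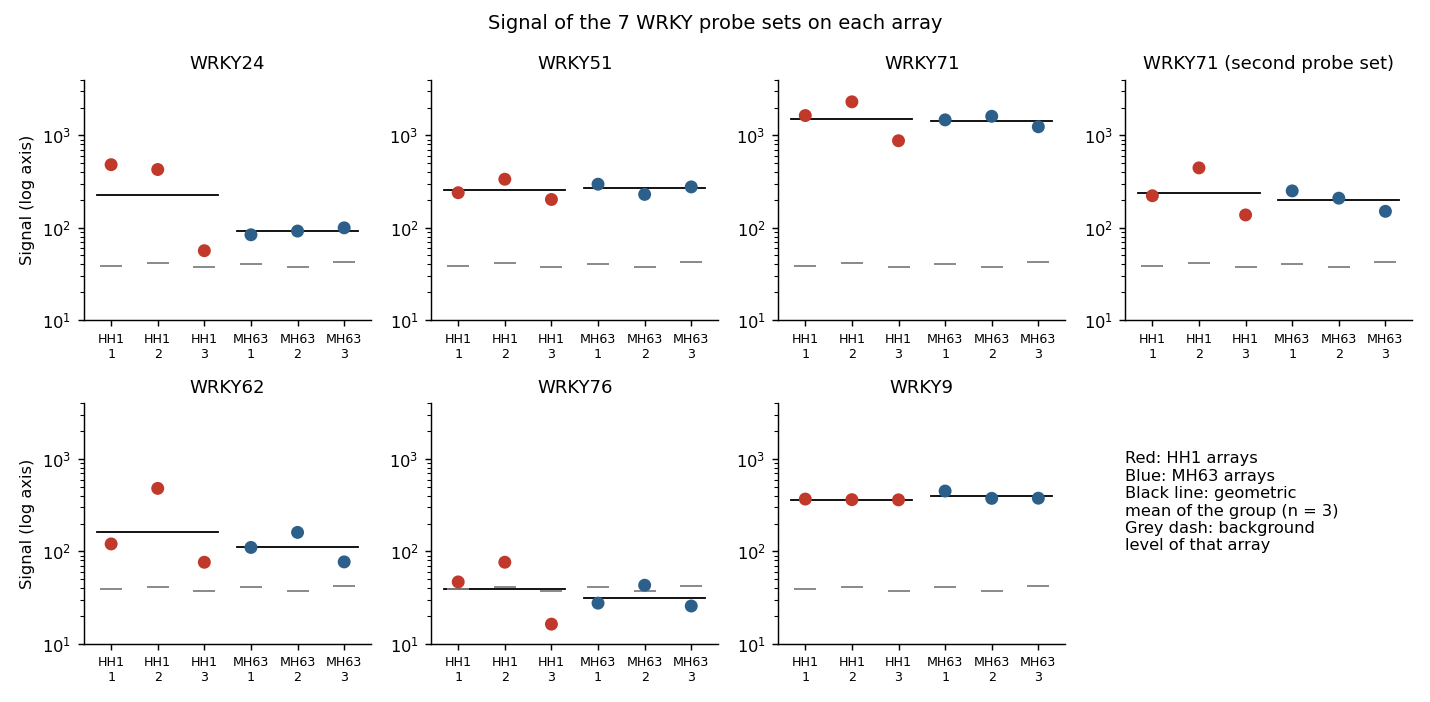
Signal of each WRKY probe set (log axis) on the 3 HH1 arrays (red) and the 3 MH63 arrays (blue), with the geometric mean of each group as a line and the background level of each array as a grey dash. HH1 replicate 3 is the lowest point for each gene above background, by a slight margin for WRKY62 and WRKY9. WRKY76 lies near the background level, below it on 3 arrays.

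Of the gibberellin-related members, WRKY24 had the largest difference between the genotypes among the 6 genes. Its signal was 481 on HH1 replicate 1, 426 on HH1 replicate 2 and 56.3 on HH1 replicate 3, against 83.8, 91.9 and 99.6 on MH63 replicates 1, 2 and 3. HH1 replicates 1 and 2 thus lay above every MH63 array, at 5.25 and 4.66 times the MH63 geometric mean, while HH1 replicate 3 lay below every MH63 array, at 0.615 times that mean. HH1 averaged 321 ± 231 and MH63 91.8 ± 7.93 (SD, n = 3 arrays), a log2 difference of 1.30 with a standard error of 0.78, a 95% interval from -0.54 to 3.15 and an adjusted p of 1.00 (limma). Without HH1 replicate 3 the log2 difference was 2.31 with an adjusted p of 0.0050 (limma), and WRKY24 was then the only WRKY probe set that passed, where 1.07% of all probe sets passed (1.01% higher and 0.0629% lower in HH1). Without HH1 replicate 1 the log2 difference was 0.76, and without HH1 replicate 2 it was 0.85, with adjusted p of 1.00 and 0.80 (limma). Among the 14815 genes tested, 53 (0.358%) had HH1 replicates 1 and 2 each at least 4-fold above the MH63 geometric mean and HH1 replicate 3 below it, limits set after the values of WRKY24 were seen.

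WRKY71, which binds W boxes in the promoter of an alpha-amylase gene, had a signal of 1638, 2306 and 874 on HH1 replicates 1, 2 and 3. On MH63 replicates 1, 2 and 3 it read 1469.95, 1608 and 1238. The MH63 arrays lay between the HH1 arrays, and the averages of 1606 ± 717 for HH1 and 1439 ± 187 for MH63 (SD, n = 3 arrays) differed by 0.06 on the log2 scale, with a 95% interval from -0.74 to 0.86. Its other probe set read 222, 444 and 137 on HH1 replicates 1, 2 and 3 and 250.2, 209 and 150.3 on MH63 replicates 1, 2 and 3. Both probe sets were highest on HH1 replicate 2 and lowest on HH1 replicate 3, and the second gave a log2 difference of 0.26 with a 95% interval from -0.74 to 1.27. The sign of both turned when HH1 replicate 2 was left out, with log2 differences of -0.26 and -0.19.

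WRKY51, known to act together with WRKY71 in aleurone cells, varied less. It read 239, 335 and 202 on HH1 replicates 1, 2 and 3 and 296, 229 and 276 on MH63 replicates 1, 2 and 3. Here too the HH1 arrays spanned all MH63 arrays. HH1 averaged 259 ± 68.5 and MH63 267 ± 34.1 (SD, n = 3 arrays), a log2 difference of -0.07 with a 95% interval from -0.57 to 0.43.

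Of the repressors of disease resistance, WRKY62 stood apart on a single array. It read 120.4, 481 and 76.3 on HH1 replicates 1, 2 and 3 and 110.3, 160.5 and 76.9 on MH63 replicates 1, 2 and 3. HH1 replicate 2 was at 4.34 times the MH63 geometric mean, and HH1 replicates 1 and 3 were within or just below the MH63 range. HH1 averaged 226 ± 222 and MH63 116 ± 42.1 (SD, n = 3 arrays), and the log2 difference was 0.57 with a standard error of 0.66, a 95% interval from -1.01 to 2.14 and an adjusted p of 1.00 (limma). Without HH1 replicate 2 it was -0.21, and without HH1 replicate 3 it was 1.12.

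WRKY76 lies next to WRKY62 in the gene order of the RefSeq annotation, with 0 genes between them, and was the dimmest member relative to background. Its signal was 46.7, 76.3 and 16.3 on HH1 replicates 1, 2 and 3 and 27.5, 43.0 and 25.6 on MH63 replicates 1, 2 and 3. It exceeded the background level on 2 of 3 HH1 arrays and on 1 of 3 MH63 arrays, so that its low values have no firm order. The array order at the top was the same for both neighbours in each genotype, with replicate 2 highest in HH1 and in MH63. HH1 averaged 46.4 ± 30.0 and MH63 32.0 ± 9.54 (SD, n = 3 arrays), a log2 difference of 0.31 with a 95% interval from -0.97 to 1.60. Without HH1 replicate 3 it was 0.94, with an unadjusted p of 0.021 and an adjusted p of 0.48 (limma), where 7.18% of all probe sets had an unadjusted p below 0.05.

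WRKY9, for which no role is given here, was nearly constant in HH1. It read 369, 363 and 361 on HH1 replicates 1, 2 and 3 and 450.1, 375 and 377 on MH63 replicates 1, 2 and 3. It was the only WRKY gene whose groups did not overlap, with every HH1 array below every MH63 array. Over all genes tested, 6.12% were without overlap and lower in HH1, and 2.51% were without overlap and higher. Without HH1 replicate 3 the groups did not overlap in 4 WRKY genes, each read by its brightest probe set. WRKY9 was lower and WRKY24, WRKY71 and WRKY76 were higher in HH1, beside 9.05% of all genes tested higher and 11.9% lower. The second probe set of WRKY71 overlapped there, at 222 on HH1 replicate 1 and 250.2 on MH63 replicate 1. WRKY76 was below background on MH63 replicates 1 and 3. WRKY9 averaged 364 ± 3.71 for HH1 and 401 ± 42.9 for MH63 (SD, n = 3 arrays). Its log2 difference was -0.13 with a standard error of 0.12, a 95% interval from -0.42 to 0.16 and an adjusted p of 1.00 (limma). Without MH63 replicate 1 the log2 difference was -0.05.

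**Figure D2:**
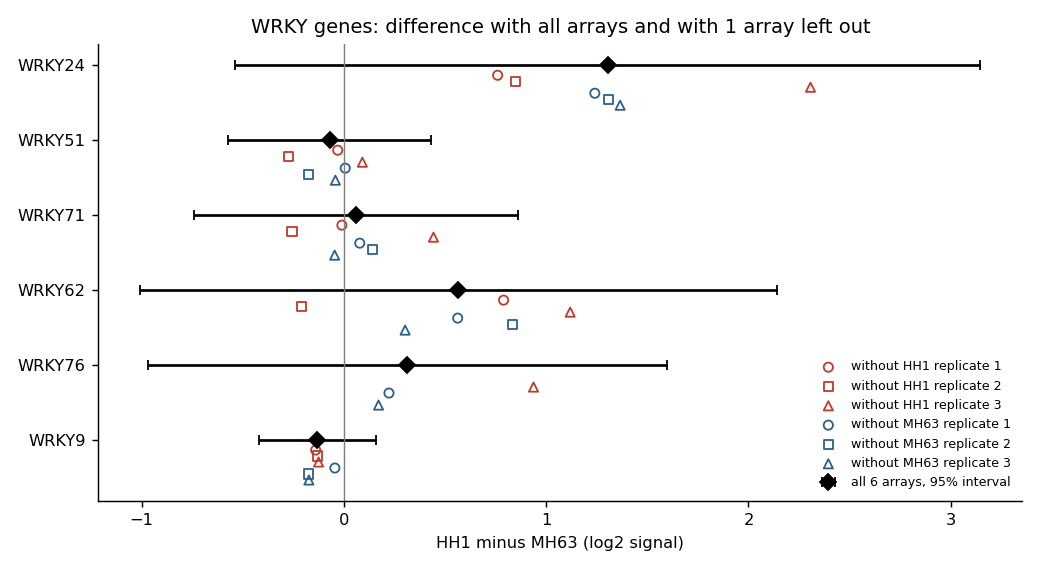
Log2 difference HH1 minus MH63 of each WRKY gene with all 6 arrays (black, with its 95% interval from limma) and with 1 array left out (open symbols). WRKY24 moves from 1.30 to 2.31 without HH1 replicate 3, and each interval with all arrays includes 0. WRKY76 has no symbol where it fell below the brightness filter.

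The median log2 difference of the 6 WRKY genes was 0.19, with 4 of 6 above 0, beside a median of -0.03 and 41.6% above 0 over the 14815 genes tested. Leaving out 1 array moved the WRKY median between -0.21 (without HH1 replicate 2, 5 genes tested) and 0.69 (without HH1 replicate 3). The 3 genes of group IIa, a subgroup of WRKY factors that holds WRKY62, WRKY71 and WRKY76, each had a log2 difference above 0. That of WRKY71 was only 0.06, that of WRKY62 turned to -0.21 without HH1 replicate 2, and WRKY76 lay near background. All 3 had their highest signal on HH1 replicate 2, beside 20.5% of all genes tested. WRKY51, outside this group, was also highest there. The spread within genotypes set WRKY genes apart from one another. The SD of log2 signal over the 3 HH1 arrays was 1.74 for WRKY24 and 1.38 for WRKY62, above 99.1% and 98.6% of tested probe sets, whose median was 0.20. It was 0.71 and 0.85 for the probe sets of WRKY71 and 0.37 for WRKY51. For WRKY9 it was 0.015, and 0.532% of tested probe sets had a smaller one. The log2 SD of WRKY76 is not read, because the gene was below background on HH1 replicate 3 and on 2 MH63 arrays.

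Over the MH63 arrays the order differed. WRKY24, the most variable in HH1, had an SD of 0.13 on the log2 scale in MH63, below the median of 0.15 over tested probe sets. WRKY62 kept a large SD in MH63, 0.53, above 96.6% of tested probe sets. WRKY71 and WRKY51 both had an SD of 0.19, and the second probe set of WRKY71 had 0.37. Spread was not tested between genotypes.

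**Figure D3:**
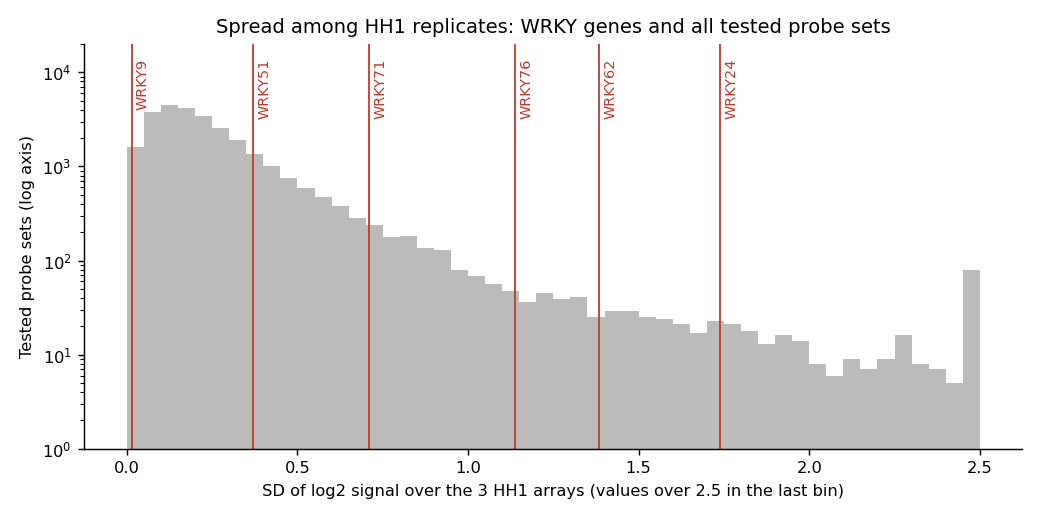
Histogram of the SD of log2 signal over the 3 HH1 arrays for all 28597 tested probe sets (log axis for the count), with the 6 WRKY genes as red lines. WRKY24 and WRKY62 lie in the upper tail and WRKY9 at the lower end. The line of WRKY76 rests on a signal below background on HH1 replicate 3.

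Signalling genes that act before and after WRKY factors were examined as lists. MAP kinases, which phosphorylate WRKY factors, and their kinases had 0 of 16 genes past the test in either direction (limma, and 0 at an unadjusted p under 0.05), beside 0.121% of all genes tested (0.081% higher and 0.0405% lower), and a median log2 difference of -0.01. MPK8 and MPK16, of the smallest and the third smallest p in the list, had log2 differences of 0.26, from a probe set that can bind related transcripts, and -0.18. BIMK1, second by p, the defence MAP kinase also listed as OsMAPK5 and OsMPK3, followed the array pattern of WRKY24 at a smaller scale. It read 1704, 1675 and 825 on HH1 replicates 1, 2 and 3 and 1024, 928 and 948 on MH63 replicates 1, 2 and 3. With all arrays its log2 difference was 0.46, with an adjusted p of 1.00 (limma). Without HH1 replicate 3, the array of its lowest signal, it was 0.81 with an adjusted p of 0.047 (limma). In that setting 1.07% of all probe sets tested passed, 1.01% higher and 0.0629% lower in HH1.

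The list of receptors of chitin and other microbial patterns, which feed these kinases, also held OsRac1 and OsrbohB, which are not receptors. It had 0 of 7 genes past the test (limma, 1 at an unadjusted p under 0.05, beside 4% of all genes tested). In 2 of the 7 the groups did not overlap, both lower in HH1, beside 6.12% of all genes tested without overlap and lower. The gene listed as RLK10, a receptor kinase, averaged 193 ± 18.5 for HH1 and 279 ± 16.5 for MH63 (SD, n = 3 arrays), a log2 difference of -0.53 with an adjusted p of 0.84 (limma), from a probe set that can bind related transcripts. CEBIP, the rice chitin-binding receptor protein, read 411, 443 and 298 on HH1 replicates 1, 2 and 3 against 473, 491 and 447 on MH63 replicates 1, 2 and 3, a log2 difference of -0.31. OsRac1, a small GTPase of immune signalling, had a log2 difference of -0.17.

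Salicylic acid signalling genes, the NPR1 homologues and TGA factors of the pathway that induces several WRKY genes, had 0 of 17 genes past the test (limma, and 0 at an unadjusted p under 0.05) and a median log2 difference of -0.10. TGAL1, NH4 and TGAL7 had the smallest p of the list, with log2 differences of -0.25, -0.24 and 0.18. Of these 17 genes, 5 were highest on HH1 replicate 2 and lowest on HH1 replicate 3, the pattern of WRKY51, WRKY62 and WRKY71. It was seen in 0 of 16 MAP kinases, 0 of 7 genes of the receptor list, 1 of 7 pathogenesis-related genes and 8% of the 14815 genes tested. Pathogenesis-related proteins and chitinases had 0 of 7 genes past the test (limma, and 0 at an unadjusted p under 0.05), beside 0.121% and 4% of all genes tested. Their median was 0.11, and it was -0.08 over 19 genes before those with shared short names were left out. The chitinase Cht-1 read 549, 408 and 154 on HH1 replicates 1, 2 and 3 and 191, 340 and 256 on MH63 replicates 1, 2 and 3, and Cht-3 and Cht6 had log2 differences of -0.18 and 0.11. PBZ1, a probenazole-induced protein of the PR10 class that was singled out after its values were seen, read 5427, 9833 and 366 on HH1 replicates 1, 2 and 3. On MH63 replicates 1, 2 and 3 it read 827, 6161 and 1928, so that it was highest on replicate 2 of each genotype, as WRKY62 and WRKY76 were. No gene of these lists is named VQ in the tables, so the VQ partners of WRKY factors are not analysed here.

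**Figure D4:**
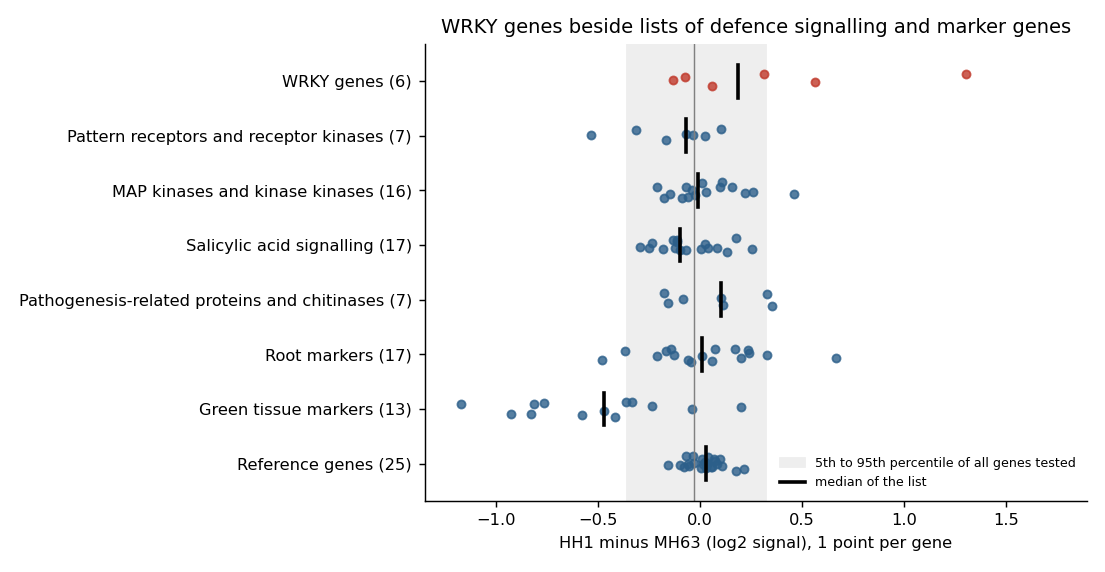
Log2 difference HH1 minus MH63 of each tested gene (1 point per gene) in the WRKY family (red) and in lists of defence signalling and marker genes (blue), with list medians as bars and the 5th to 95th percentile of all genes tested as a band. The WRKY median lies at 0.19, and WRKY24 at 1.30 is the point farthest to the right.

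Markers of tissue were read beside the WRKY genes. Of 17 root markers tested, 16 lay above background on every array, among them Lsi1, the silicon channel of root cells, which averaged 7682 ± 802 for HH1 and 6662 ± 1892 for MH63 (SD, n = 3 arrays). None of the 17 passed the test (limma, 1 at an unadjusted p under 0.05), beside 0.121% and 4% of all genes tested. OsPIP2;4, OsCASP1 and OsPht1;2 had the smallest p of the root list, with log2 differences of -0.37, -0.48 and -0.16. Of the 17 root markers, 9 had a log2 difference above 0 and 8 below. Summed signals of the root markers ran from 29347 to 32381 in HH1 and from 26256 to 35783 in MH63. Of 13 green tissue markers tested, 12 had a log2 difference below 0, beside 8649 of the 14815 genes tested. Their median was -0.47, beside -0.03 over all genes tested. Among these markers 0 passed (limma, 1 at an unadjusted p under 0.05), beside 0.121% and 4% of all genes tested. Only 6 of the 13 lay above background on every array. Their summed signal was 1216, 2786 and 1043 on HH1 replicates 1, 2 and 3 and 3488, 3604 and 985 on MH63 replicates 1, 2 and 3. In HH1 the sum was highest on replicate 2, and MH63 replicates 1 and 2 had higher sums than any HH1 array. The part of green tissue in the WRKY values was not tested.

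To show which named transcripts moved with the WRKY genes, the named genes with the closest profile over the 6 arrays were listed, by the root mean square distance of log2 signals after each gene's MH63 mean was subtracted. Only 2457 of the 17905 genes with a probe set have a name beyond a locus number. Each closest gene given here is the closest among the tested genes of these, and unnamed genes were not searched. The measure was chosen after the values of the WRKY genes were seen and carries no test. The closest named gene to WRKY24 was ERG1, listed in rice as an elicitor-responsive gene, at a distance of 0.11. ERG1 read 550.1, 583 and 79.0 on HH1 replicates 1, 2 and 3 and 108, 111 and 124 on MH63 replicates 1, 2 and 3. As in WRKY24, HH1 replicates 1 and 2 lay above and HH1 replicate 3 below all MH63 arrays, the likeness by which ERG1 was picked. Next came the cytochrome P450 CYP76M5 at 0.28, the transporter ABCG44 at 0.34, from a probe set that can bind related transcripts, and the inositol phosphate kinase ITPK4 at 0.34. CYP76M5 was at or below background on HH1 replicate 3 and on the MH63 arrays.

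The closest named gene to WRKY62 was ARD1, an acireductone dioxygenase of the methionine cycle, at a distance of 0.27. ARD1 read 869.6, 2086 and 442 on HH1 replicates 1, 2 and 3 and 699, 1116 and 509 on MH63 replicates 1, 2 and 3. It was highest on replicate 2 of both genotypes, as WRKY62 was. NSHB1, a non-symbiotic haemoglobin read from a probe set that can bind related transcripts, and OsTPP1, a trehalose phosphate phosphatase, followed for WRKY62 at 0.32 each. For WRKY71 the closest were OsPIN5, an auxin transporter of the PIN family, at 0.09 and GDH2, a glutamate dehydrogenase, at 0.13. WRKY51 lay closest to OsPP2C64 and the NPR1 homologue NH1, both at 0.09. The flat profile of WRKY9 was closest to that of DRB2, at 0.03. WRKY76 lay closest to CML31, a calmodulin-like protein, and then to ARD1, at 0.22 each, distances that rest in part on arrays where WRKY76 was below background.

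**Figure D5:**
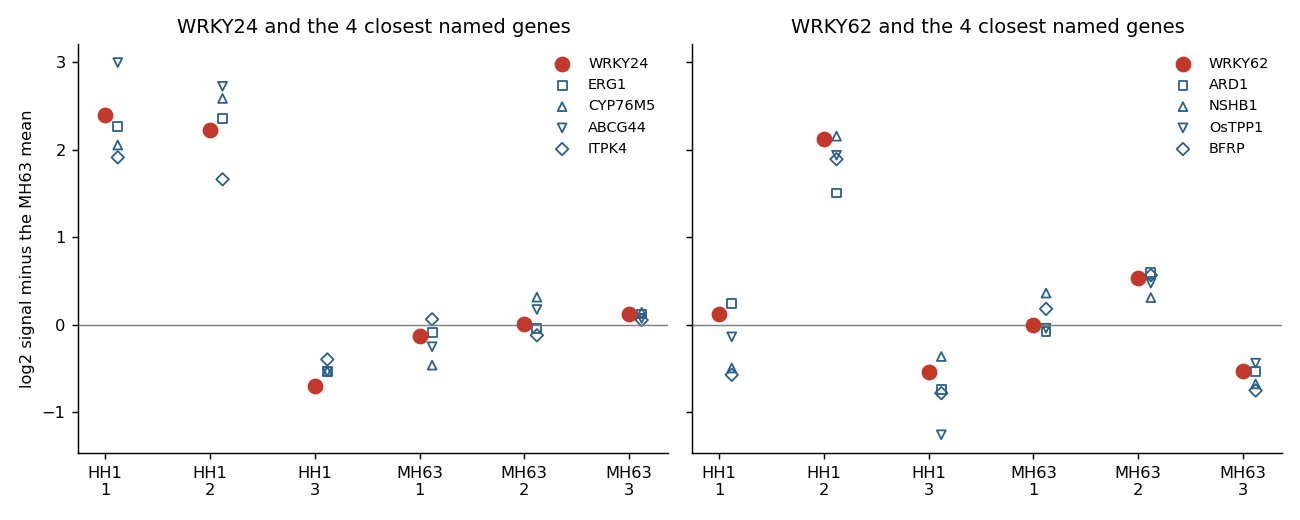
Log2 signal relative to the gene's MH63 mean on each array for WRKY24 (left) and WRKY62 (right), each with its 4 closest named genes as open symbols. WRKY24 and its neighbours are high on HH1 replicates 1 and 2, and WRKY62 and its neighbours on HH1 replicate 2.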

How the data were processed

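Root RNA of 3 HH1 and 3 MH63 samples was hybridised to 1 Affymetrix rice array each. The deposited values are signal intensity on a linear scale, 1 per probe set and array, made with MAS5 (version not given) per the submitters' processing notes. The arrays had means, after trimming the outer 2% on both sides, of 161 to 170, so how the authors scaled the arrays is uncertain, and the table has no detection calls. Medians ran from 33.1 to 33.8.

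Signals were used as log2 values with no offset. After 187 controls were set aside, the brighter 50% of 57194 probe sets entered a two-sided test of genotype in limma 3.58.1 under R 4.3.3 (lmFit, then eBayes using an intensity trend), adjusted by Benjamini-Hochberg to a threshold of 0.05. The fit was tested on simulated arrays. The number of arrays limits the precision.

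Genes were assigned from the platform annotation and the RefSeq table of assembly ASM3414082v1 by gene number. All 17905 genes matched, while the annotation leaves 34663 of the probe sets without an entry. The array's genome build is not stated in the labels, so no coordinates are printed. Each gene was represented by its brightest tested probe set. Genes caught by a shared short name (such as Tubby-like proteins listed as TLP) were left out of the lists after the values were seen. W boxes and protein domains had been planned and were not analysed here.

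The members, lists and tests were chosen with earlier results of these data known. All 6 members were named, with up to 3 genes of smallest p per list, and Lsi1 and PBZ1 beside them. Replicate numbers were not taken as pairs, and the block is an alternative beside quantile normalization, median centring, other filters, an added offset of 13.2, equal to the 25th signal percentile, no trend, array weights and leaving out each array. Figures were drawn with matplotlib 3.10.9.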

Additional observations from a re-analysis of the deposited data

How the results depend on the processing

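The number of WRKY probe sets called was 0 in each alternative with all 6 arrays and 0 to 1 when 1 array was left out, where the call is WRKY24 without HH1 replicate 3. The number of WRKY genes without overlap was 1, and 1 to 4 with 1 array left out, the 4 again without HH1 replicate 3 (3 higher and 1 lower, beside 9.05% higher and 11.9% lower of all genes tested), and the cause was not tested. These counts use the brightest probe set of each gene, and the second probe set of WRKY71 overlapped without HH1 replicate 3. The call count over all probe sets, 32, rose to 54 without the brightness filter, where more are tested, was 8 in the brightest 25%, where fewer are, 50 with array weights and 0 to 306 with 1 array left out (0 without HH1 replicate 1, where 843 had an unadjusted limma p below 0.05), and the cause was not tested. With a replicate block it was 17. Deviations of same-numbered arrays correlated at -0.12, 0.45 and 0.31 over tested probe sets, and those of different-numbered arrays at -0.45 to 0.25. The labels do not say that the numbers pair the samples, and a shared source of replicates 2 or 3 was not tested. With the block no WRKY probe set was called. The standard error fell from 0.66 to 0.34 for WRKY62 and from 0.34 to 0.22 for the brighter probe set of WRKY71, and rose slightly for WRKY9 and WRKY51. Signs turned for WRKY71, at -0.078 with array weights and from -0.26 to 0.44 with 1 array left out, for WRKY62, from -0.21 to 1.12, and for WRKY51, from -0.27 to 0.091. The WRKY median, 0.19, was -0.07 in the brightest 25%, where 3 genes were tested, and -0.01 with array weights. WRKY24 stayed above 0 in the 14 settings that tested it and WRKY9 below 0 in 15. Leaving shared short names out changed the pathogenesis-related list from 8 of 19 members above 0 to 4 of 7, and turned its median log2 difference from -0.08 to 0.11. Signal over background limits WRKY76.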
